A study of Mus musculus with 22 samples.

Results

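The 40 genes described here encode enzymes of glycolysis, transporters that bring glucose in and lactate out, and parts of the response to low oxygen. They were chosen by name from a fixed list, with earlier results of these data known. All 40 were found among the 24421 gene symbols counted in every library. They were followed in RNA-seq of mouse bladder organoids, which are epithelial cultures grown in 3 dimensions. Primary urothelial organoids, from the lining of the bladder, were either ARID1A WT (wild type) or ARID1A KO (knockout). Total RNA, the polysome fraction and the subpolysome fraction of a sucrose gradient were each sequenced from 3 WT and 3 KO samples. Total RNA of bladder cancer organoids, labelled isogenic, added 2 libraries labelled ARID1A WT and 2 labelled ARID1A KO, which makes 22 libraries. The labels name no promoter, Cre line, clone, animal age, drug or oxygen level, and do not say whether replicates were separate cultures. The p-values therefore reflect library-to-library spread only, part of which may be technical.

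Glycolysis breaks glucose down to pyruvate in the cytosol, and lactate dehydrogenase turns pyruvate into lactate when it is not burnt in mitochondria. Many of these genes are targets of the hypoxia-inducible factors HIF-1 alpha (Hif1a) and HIF-2 alpha (Epas1), transcription factors whose proteins are marked for destruction by prolyl hydroxylases (Egln1, Egln3) as long as oxygen is present. HIF activity is set mainly at the protein level, which RNA counts do not show. Arid1a encodes a DNA-binding subunit of BAF, the mammalian SWI/SNF complex, which moves nucleosomes.

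Total counts ran from 64911189 to 76594655 in total RNA and polysome libraries, from 39245248 to 51628570 in subpolysomes and from 48429672 to 55431426 in cancer libraries. Values per library below are CPM scaled by TMM factors over all 22 libraries (scaled CPM), in the order of the libraries' numbers. Arid1a itself had 114, 130.3 and 116 scaled CPM in WT and 74.9, 74.8 and 83.8 in KO total RNA (log2 fold change -0.60, SE 0.059, edgeR's adjusted p = 5.68e-06). In polysomes the groups overlapped, 34.6, 24.8 and 21.6 in WT and 23.6, 19.2 and 13.9 in KO, and the difference of -0.48 did not pass (adjusted p = 0.0817). In subpolysomes Arid1a was not lower in KO, with 60.3, 62.8 and 55.8 in WT and 75.3, 64.3 and 62.4 in KO (0.19, adjusted p = 0.276). Only in total RNA did Arid1a thus bear out the labels, which do not say which part of the gene was deleted, and the genotypes of both fractions are as labelled. Among cancer libraries it had 66.9 and 196 in those labelled WT and 175 and 56.8 in those labelled KO, so 2 of the 4 ran against their labels, and cancer genotypes hold only as labelled. The Y-linked Ddx3y had 68.6 and 49.3 CPM of the library's total in the cancer libraries labelled WT. It had 59.8 in the one labelled KO 1 and 0.217 in the one labelled KO 2, so KO 2 stood apart in this gene. Whether KO 2 is isogenic with the other cancer libraries was not tested. The ribosomal RNA precursor Rn45s took 2.44% to 2.58% of counts in WT and 2.02% to 2.08% in KO total RNA, without overlap. It took 0.208% to 2.70% in WT and 0.307% to 0.653% in KO polysomes, and 0.439% to 0.983% in WT and 0.880% to 5.59% in KO subpolysomes, where KO 3 was the highest. The keratin Krt5 was high in all the organoids (between 7790 and 11640 CPM of the library's total in total RNA). The uroplakins Upk2 and Upk3a had 0 counts in the 4 cancer libraries. Krt7 had 2994 to 3110 CPM in primary WT total RNA and 0.237 to 0.249 in cancer labelled WT. Krt8 had 159 to 164 CPM in primary WT total RNA and 0.804 to 9.39 in cancer labelled WT. Of the 15 urothelial markers 11 were lower in cancer than in primary organoids and 2 higher, against 39.0% and 38.8% of all genes. Markers of other cell types were scarce for fibroblasts (summed 0.402 to 16.3 CPM over 10 genes), endothelium (0.613 to 15.0 CPM over 10 genes) and red cells (at most 0.612 CPM over 6 genes). The 8 smooth muscle markers summed to 177.9 to 189.4 CPM in WT and 203.6 to 226.3 CPM in KO total RNA, nearly all from Smtn. Of the 3 tested, 1 rose and 2 fell in KO total RNA, against 27.0% and 26.3% of all genes. Mylk had 2.87 to 4.70 CPM in WT and 0.228 to 0.338 in KO, and Lmod1 1.02 to 1.70 and 0.216 to 0.349. The 12 immune markers summed to 67.8 to 83.7 CPM in WT and 103.9 to 107.1 CPM in KO total RNA, nearly all of it from Cd14 and Cd68, with the leukocyte antigen Ptprc at 0 in all 6, and 10 of the 15 urothelial markers rose and 4 fell in KO total RNA. The part of these differences between libraries in the results below was not tested, and in bulk RNA fewer cells of a type and less RNA per cell cannot be told apart.

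Among isozymes, levels were compared per kilobase of annotated exon, as scaled CPM per kb (mean ± SD, n = 3). In WT total RNA the aldolase Aldoa stood at 469.8 ± 20.9 and its relative Aldoc at 9.95 ± 0.624. Of the phosphofructokinases, which catalyse the committed step, the liver form Pfkl led with 43.7 ± 1.54. The muscle form Pfkm stood at 9.44 ± 0.333 and the platelet form Pfkp at 6.64 ± 0.586. The order of Pfkm and Pfkp rests on their annotated exon lengths, 3.34 kb and 13.401 kb. Without division by length Pfkp was above Pfkm, with 107.8 and 38.2 CPM of the library's total in WT and 122.8 and 46.5 in KO. The hexokinases, which trap glucose in the cell, were closer together, Hk1 at 16.5 ± 0.619 and Hk2 at 11.1 ± 0.87. Lactate dehydrogenase was almost wholly of the A form (Ldha 371 ± 30.5, Ldhb 3.53 ± 0.283), and the lactate exporter Slc16a3 (MCT4) was near the floor at 0.0939 ± 0.0145 beside 4.38 ± 0.618 for Slc16a1 (MCT1). In KO total RNA the order within each of these families was the same, but Aldoc stood at 28.5 ± 0.711, Hk2 at 20.1 ± 4.10 and Slc16a3 at 0.475 ± 0.0935.

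The first comparison asks how loss of Arid1a goes with the RNA of these genes. In total RNA 29 of the 40 members rose in KO organoids and 2 fell, against 27.0% of all 13198 genes tested that rose and 26.3% that fell (53.2% called in either direction; edgeR's quasi-likelihood test, Benjamini-Hochberg adjusted p under 0.05). The median log2 fold change of the 40 was 0.48, beside 0.0026 for all genes. By role, 3 of 3 transporters rose, 12 of 15 glycolytic enzymes, 5 of 5 genes of pyruvate and flux control, 3 of 4 oxygen sensing genes and 6 of 13 HIF targets. The genes that fell were Epas1 and Ddit4. In 28 members all 3 KO libraries lay above all 3 WT libraries, and in 4 all lay below, where 28.3% and 33.3% of all genes did so.

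**Figure D1:**
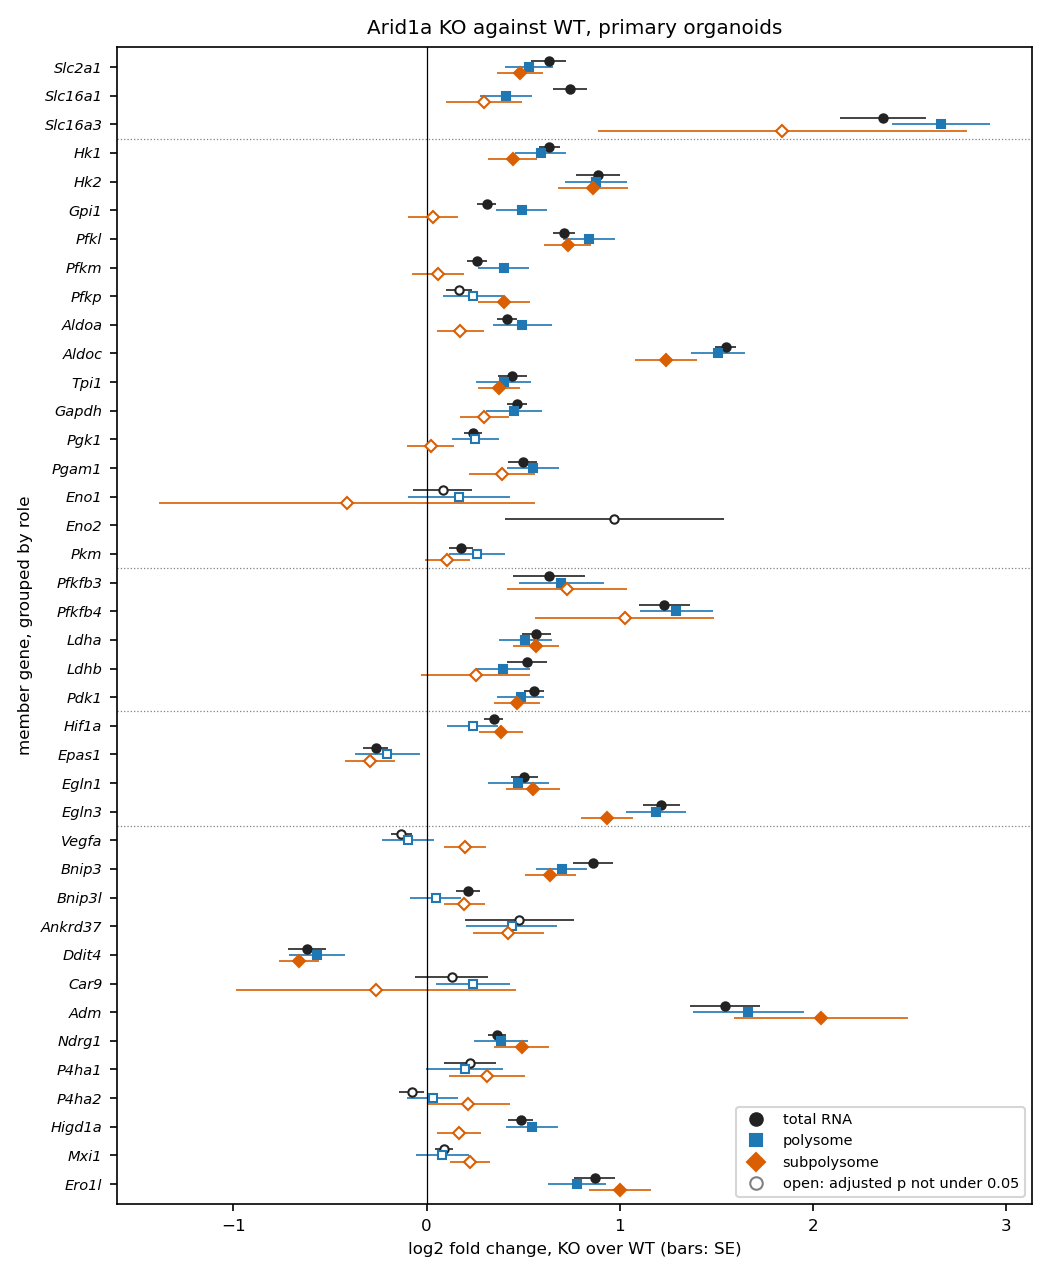
Log2 fold change of KO over WT (horizontal axis, bars are SE) for each member (vertical axis, dotted lines divide transporters, glycolytic enzymes, pyruvate and flux control, oxygen sensing and HIF targets) in total RNA, polysomes and subpolysomes of primary organoids, 3 libraries a group. Filled symbols passed the test; most lie to the right of 0, with Slc16a3, Aldoc, Adm, Pfkfb4 and Egln3 farthest out and Ddit4 to the left in all 3 kinds of RNA.

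Transport rose at both ends of the pathway. Slc2a1 (GLUT1), the main glucose importer of epithelia, had 168, 139 and 157 scaled CPM in WT and 269, 228 and 209 in KO total RNA. The groups did not overlap (log2 fold change 0.63, SE 0.09, adjusted p = 0.000109, 3 against 3 libraries). Slc16a1, which carries lactate and pyruvate across the membrane, went from 22.5, 17.6 and 17.97 to 32.6, 30.9 and 32.01 (log2 fold change 0.74, SE 0.089, adjusted p = 2.85e-05). Slc16a3, the exporter typical of glycolytic cells (chr11:120948480-120960868, plus strand, GRCm38), had the highest fold change of the 40, from 0.574, 0.504 and 0.42 in WT to 2.81, 2.81 and 1.95 in KO. That is 5.14 times (log2 fold change 2.36, SE 0.22, adjusted p = 4.46e-06), but from a level of under 1 scaled CPM.

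Of the glycolytic enzymes, Aldoc (chr11:78322968-78327781, plus strand) changed most. Its libraries had 34.3, 32.8 and 30.3 scaled CPM in WT and 95.7, 91.6 and 91.8 in KO, 2.92 times as much, with little spread inside either group (log2 fold change 1.55, SE 0.054, adjusted p = 1.83e-09). Hk2, the inducible hexokinase, rose from 60.5, 67.05 and 70.7 to 147, 114 and 98.7 (log2 fold change 0.89, SE 0.11, adjusted p = 4.84e-05), and Hk1 from 140.4, 146 and 136 to 232, 199 and 212 (log2 fold change 0.64, SE 0.055, adjusted p = 1.99e-06). All KO libraries of both hexokinases were above all WT libraries, and the KO libraries of Hk2 were spread more widely. Pfkl rose from 303, 285 and 286 to 510.2, 453 and 442 (log2 fold change 0.71, SE 0.056, adjusted p = 9.81e-07), while Pfkm rose by 0.26 on the log2 scale and Pfkp, at 98.00, 84.00 and 84.8 in WT and 105, 91.5 and 97.8 in KO, did not pass (adjusted p = 0.0587). The log2 changes of other enzymes were 0.31 for the isomerase Gpi1, 0.42 for Aldoa, 0.44 for the triose phosphate isomerase Tpi1, 0.47 for the dehydrogenase Gapdh, 0.24 for the kinase Pgk1 and 0.50 for the mutase Pgam1, all past the threshold. Gapdh, often used as a reference gene, had 1501, 1450 and 1482 scaled CPM in WT and 2165, 1864 and 1986 in KO. Pkm, the pyruvate kinase of the last step, rose by 0.18 (adjusted p = 0.0277) with overlapping groups, and its call was lost without KO 1, WT 2 or WT 3. The enolases did not pass: Eno1 had 2.43, 2.10 and 2.37 in WT and 2.66, 2.37 and 2.15 in KO, and Eno2, the neuronal form, stayed at or under 0.255 scaled CPM.

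Genes that steer pyruvate and flux all rose. Ldha, which makes lactate, had 1345, 1168 and 1173 scaled CPM in WT and 2011, 1647 and 1707 in KO (log2 fold change 0.57, SE 0.077, adjusted p = 7.16e-05), and Ldhb, the form that favours the reverse reaction, 5.03, 5.77 and 5.83 and 7.12, 8.51 and 7.74 (log2 fold change 0.52, SE 0.10, adjusted p = 0.00133). Pdk1, a kinase that shuts pyruvate out of the mitochondrial dehydrogenase, rose from 119.6, 112 and 111 to 176, 161 and 158 (log2 fold change 0.56, SE 0.053, adjusted p = 4.26e-06). Of the bifunctional enzymes that set fructose 2,6-bisphosphate, the activator of phosphofructokinase, Pfkfb4 rose from 2.04, 2.34 and 1.93 to 5.03, 4.32 and 5.15 (log2 fold change 1.23, SE 0.13, adjusted p = 1.25e-05). Pfkfb3 rose from 15.3, 14.4 and 14.6 to 31.4, 20.4 and 15.7 (log2 fold change 0.64, SE 0.19, adjusted p = 0.0137). KO 1 was the highest of its libraries and KO 3 close to WT, and DESeq2 did not call it (adjusted p = 0.0618; 0.000804 to 0.0618 over the alternatives run).

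The oxygen sensing genes moved in both directions, with Epas1 the one that fell. Egln3, a prolyl hydroxylase that HIF itself induces (chr12:54178981-54203860, minus strand), had 148, 143 and 151 scaled CPM in WT and 399.9, 323 and 285 in KO, 2.32 times as much (log2 fold change 1.22, SE 0.10, adjusted p = 9.14e-07). Egln1, the main sensor in most cells, rose from 100, 87.3 and 88.8 to 142, 123 and 120.2 (log2 fold change 0.51, SE 0.071, adjusted p = 9.64e-05). Hif1a rose from 228, 204 and 209 to 272, 263 and 266 (log2 fold change 0.35, SE 0.05, adjusted p = 0.000127), whereas Epas1 fell from 42.5, 49.1 and 46.6 to 35.03, 39.7 and 38.05 (log2 fold change -0.26, SE 0.063, adjusted p = 0.00408). Neither pair of groups overlapped.

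The HIF targets were divided. Adm, the vasodilator peptide adrenomedullin (chr7:110627661-110629820, plus strand), rose from 3.20, 3.63 and 2.70 scaled CPM to 11.97, 7.71 and 7.53 (log2 fold change 1.54, SE 0.18, adjusted p = 2.39e-05). Bnip3, a mitophagy receptor, rose from 44.9, 34.01 and 42.1 to 79.9, 71.7 and 64.4 (log2 fold change 0.86, SE 0.10, adjusted p = 2.45e-05), and its relative Bnip3l by 0.21 (adjusted p = 0.0139), a call lost without KO 1 or WT 2. Ero1l, an oxidase for disulfide bonds in the endoplasmic reticulum, went from 65.96, 52.1 and 58.02 to 121, 106 and 88.8 (log2 fold change 0.87, SE 0.11, adjusted p = 3.51e-05). Ndrg1 and the respiratory chain factor Higd1a rose by 0.36 and 0.49. Against these, Ddit4 (chr10:59949669-59951834, minus strand), the mTORC1 inhibitor REDD1 that hypoxia and other stresses induce, fell from 959, 899 and 797 to 661, 552 and 483 (log2 fold change -0.62, SE 0.10, adjusted p = 0.000253), with no overlap between genotypes. The other 6 targets did not pass. Vegfa, the endothelial growth factor, had 147, 132 and 139.6 in WT and 130.3, 117 and 128 in KO, a difference of -0.13 with every KO library lower (adjusted p = 0.065). Car9, the carbonic anhydrase used as a hypoxia marker in tumours, stayed between 1.83 and 2.78 scaled CPM in both genotypes. Ankrd37 had 17.2, 14.2 and 16.5 in WT and 35.7, 17.5 and 12.6 in KO, where KO 1 stood alone. The collagen prolyl hydroxylases P4ha1 and P4ha2 and the MYC antagonist Mxi1 differed by 0.23, -0.077 and 0.091.

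**Figure D2:**
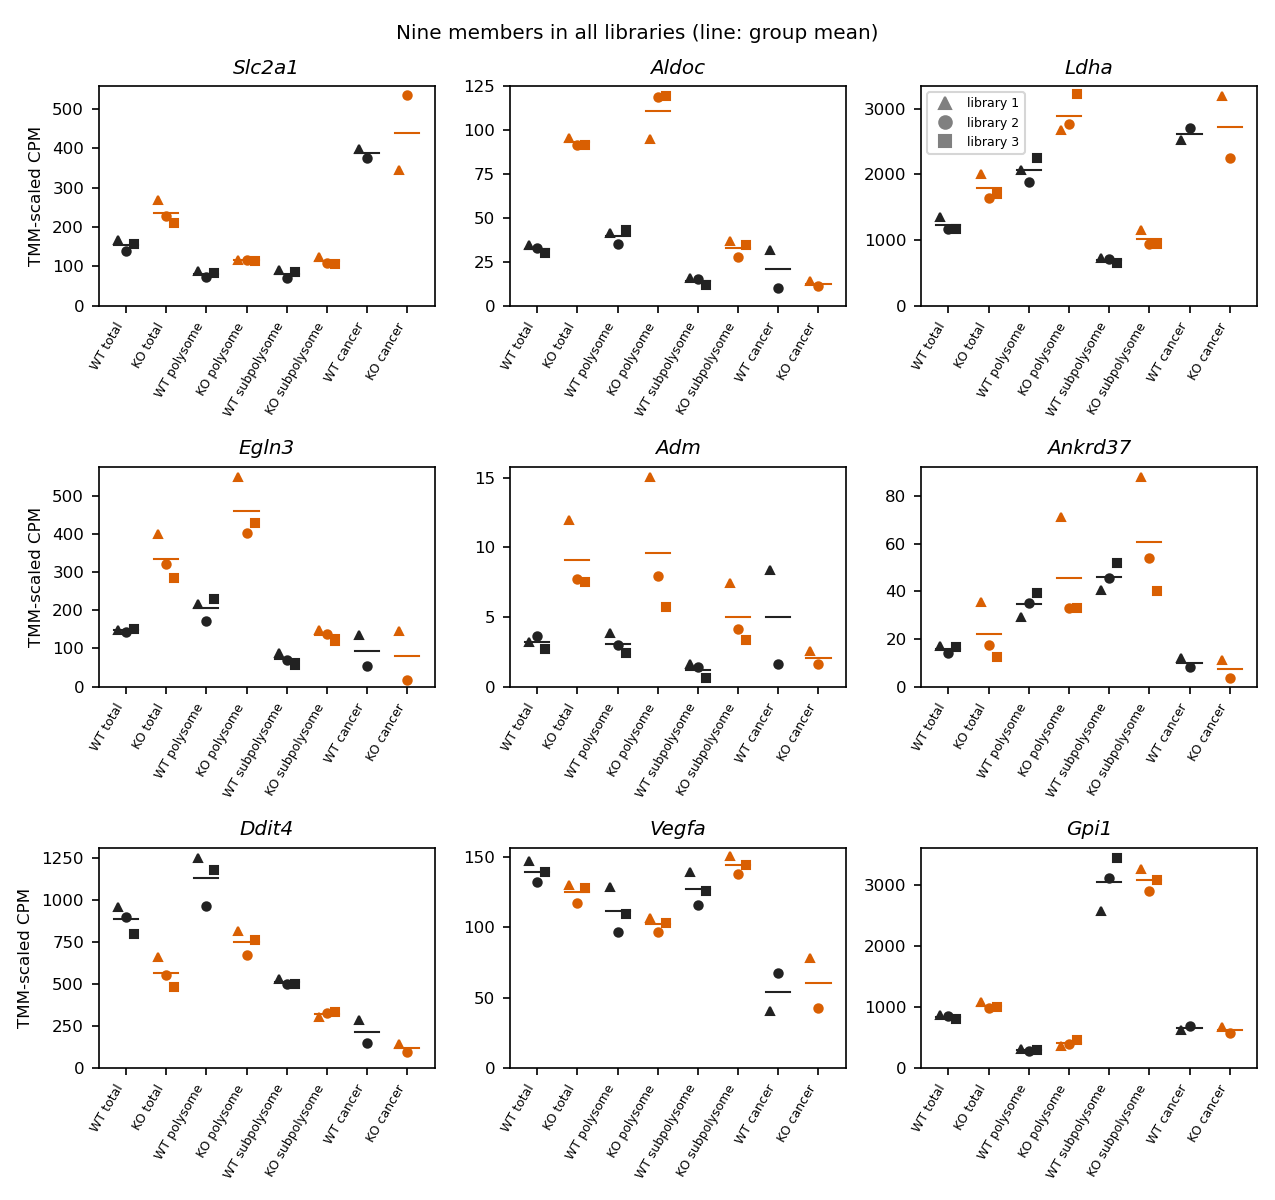
Scaled CPM (vertical axes, linear from 0) of Slc2a1, Aldoc, Ldha, Egln3, Adm, Ankrd37, Ddit4, Vegfa and Gpi1 in every library of the 8 groups (horizontal axis), with triangles, circles and squares for libraries 1, 2 and 3 and lines for group means. Aldoc and Ddit4 separate KO from WT in all 3 kinds of RNA of the primary organoids, KO 1 stands above KO 2 and KO 3 for Adm and Ankrd37, and Gpi1 is highest in subpolysomes.

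The promoters of the members were read because so many moved together. HIF binds the core ACGTG or GCGTG. These letters were searched on both strands in the 250 bases before each start site in RefSeq (GRCm38.p6), where 37 of the 40 members had 1 or more windows; Ero1l was matched through its synonym Ero1a, and no window was used for Epas1, Bnip3l and Ndrg1. A core was present in 81.1% of the 53 member windows and in 38.6% of the 32851 windows of all genes, and ACGTG alone in 50.9% and 16.6%. The 6 letters CACGTG, an E-box that other factors such as MYC bind and that holds ACGTG on both strands, were in 11.3% of member windows and 6.02% of all windows. Windows were not matched for base composition, and the list itself was drawn up around known HIF targets, so the shares describe the list. Of the 14 members that rose in total RNA, polysomes and subpolysomes alike, 13 had a window and 12 of these 13 held a core, and 1 of the 14 had no window. Per gene, 91.9% of the 37 members and 41.5% of all genes in the table held a core in at least 1 window. The 5 of these 12 whose window touches no annotated exon are shown 5′ to 3′ with the cores in capitals, to let the reader see how differently they are arranged.
Adm (chr7:110627407-110627656, plus strand): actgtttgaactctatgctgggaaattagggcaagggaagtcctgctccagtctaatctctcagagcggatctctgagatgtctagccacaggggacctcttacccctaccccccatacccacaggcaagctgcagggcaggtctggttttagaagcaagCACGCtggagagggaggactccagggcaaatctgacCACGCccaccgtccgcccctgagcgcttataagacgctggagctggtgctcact
Egln3 (chr12:54203875-54204124, minus strand): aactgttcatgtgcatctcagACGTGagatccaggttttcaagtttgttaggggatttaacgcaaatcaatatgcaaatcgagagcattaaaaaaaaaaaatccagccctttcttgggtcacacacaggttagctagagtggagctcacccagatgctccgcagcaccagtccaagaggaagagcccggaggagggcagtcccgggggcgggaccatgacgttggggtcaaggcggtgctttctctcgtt
Hk2 (chr6:82774455-82774704, minus strand): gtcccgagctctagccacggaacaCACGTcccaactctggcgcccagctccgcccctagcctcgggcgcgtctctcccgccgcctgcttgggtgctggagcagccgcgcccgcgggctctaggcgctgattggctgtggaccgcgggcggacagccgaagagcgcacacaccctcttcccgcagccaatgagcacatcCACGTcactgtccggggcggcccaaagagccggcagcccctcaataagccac
Ldha (chr7:46845554-46845803, plus strand): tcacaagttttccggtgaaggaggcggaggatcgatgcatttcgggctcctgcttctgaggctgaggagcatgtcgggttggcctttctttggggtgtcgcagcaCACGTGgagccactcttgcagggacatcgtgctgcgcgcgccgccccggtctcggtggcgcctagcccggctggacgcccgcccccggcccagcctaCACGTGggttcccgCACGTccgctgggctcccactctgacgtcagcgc
Pdk1 (chr2:71872974-71873223, plus strand): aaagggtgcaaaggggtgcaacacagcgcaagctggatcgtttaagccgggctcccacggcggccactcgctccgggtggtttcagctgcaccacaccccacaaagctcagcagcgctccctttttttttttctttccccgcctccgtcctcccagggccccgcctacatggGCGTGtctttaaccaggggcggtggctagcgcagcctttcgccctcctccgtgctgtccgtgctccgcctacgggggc
Strands of the cores are given here relative to the sequence as printed, not to the chromosome. The Ldha window holds 5 matches, 4 of them as 2 E-boxes that begin 145 and 48 bases before the start, and a single ACGTG on the minus strand 34 bases before it. Hk2 has ACGTG on the minus strand at 226 and 52 bases, Egln3 a single one on the plus strand at 229 bases. Adm has GCGTG on the minus strand at 90 and 54 bases, and Pdk1 has it on the plus strand at 78 bases. Ddit4, which fell, also held 2 matches. Of the members not called in total RNA, Pfkp, Eno1, Vegfa, Ankrd37, Car9, P4ha1, P4ha2 and Mxi1 held a core in at least 1 window. Eno2 held none, and neither did Gpi1 and Tpi1, which rose. Whether cores go with the rise in KO was not tested.

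Other genes of both pathways, from lists that hold no member, were more evenly divided. Of 40 tested genes of wider sugar metabolism (48 listed), 18 rose and 12 fell in KO total RNA. The glucose transporter Slc2a12, the glycogen phosphorylase Pygl and the galactose mutarotase Galm rose most, with log2 fold changes of 2.42 (SE 0.16, adjusted p = 2.09e-07), 1.72 (SE 0.13, adjusted p = 5.56e-07) and 1.40 (SE 0.16, adjusted p = 1.84e-05). Bpgm, which diverts glycolysis to 2,3-bisphosphoglycerate, fell most, with -0.81 (SE 0.049, adjusted p = 1.00e-07), followed by Ldhd at -0.61 (SE 0.087, adjusted p = 0.000109) and the insulin-regulated transporter Slc2a4 at -0.55 (SE 0.11, adjusted p = 0.00158). Of 39 further HIF pathway genes tested (43 listed), 12 rose and 14 fell. Stc2 at 1.27 (SE 0.30, adjusted p = 0.00383), Ak4 at 0.93 (SE 0.086, adjusted p = 3.29e-06) and the lipid droplet protein Hilpda at 0.79 (SE 0.075, adjusted p = 4.46e-06) were the highest. Arnt2 at -3.93 (SE 0.72, adjusted p = 0.000736), the lipase inhibitor Angptl4 at -2.05 (SE 0.18, adjusted p = 2.27e-06) and the growth factor subunit Pdgfb at -1.97 (SE 0.08, adjusted p = 5.74e-09) were the lowest. The medians of these lists were 0.16 and 0.021 on the log2 scale, beside 0.48 for the 40 members. All these lists were chosen with earlier results of these data known, so the contrast is a description.

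Polysomes, the mRNAs under active translation by several ribosomes, repeated the direction of total RNA. Of 39 members tested (Eno2 was too low), 25 rose in KO and 1 fell, against 14.9% and 13.8% of all 13066 genes tested (28.8% in both directions). The median log2 fold change was 0.46. All 25 had also risen in total RNA: 64.1% of the members rose in both, as did 14.2% of the 12431 genes tested in all 3 kinds of RNA. With the replicate number as a block the counts were again 25 and 1, where all genes came to 19.3% and 19.2% (38.5% in all). In 25 members the KO libraries lay wholly above the WT libraries and in 1 wholly below, as in 19.7% and 23.5% of all genes (43.1% in all). The count of rises dropped to 14 when the library WT 2 was left out, where 11.4% of all genes rose, and lay between 17 and 25 without any other single library. Calls of Gpi1, Pfkm, Pfkfb3, Aldoa, Tpi1, Gapdh, Ldha, Ldhb, Slc16a1, Egln1 and Ndrg1 were lost without at least 1 of the libraries or under another setting, and the other 14 rises and the fall of Ddit4 were not lost under the alternatives run.

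Among the members in polysomes Slc16a3 went from 0.612, 0.407 and 0.727 scaled CPM in WT to 3.39, 3.69 and 3.77 in KO (log2 fold change 2.67, SE 0.25, adjusted p = 5.24e-07). Aldoc went from 41.2, 34.9 and 43.3 to 95.2, 119 and 119.7 (log2 fold change 1.51, SE 0.14, adjusted p = 3.52e-07), Pfkfb4 from 1.82, 2.18 and 1.83 to 4.43, 4.88 and 4.73 (log2 fold change 1.29, SE 0.19, adjusted p = 5.87e-05) and Egln3 from 217, 172 and 230 to 549.5, 402 and 429 (log2 fold change 1.19, SE 0.16, adjusted p = 1.91e-05). In each of these no KO library reached down to the WT libraries. Pfkl, the main phosphofructokinase, rose from 147, 112 and 126 to 206, 235 and 237 (log2 fold change 0.84, SE 0.14, adjusted p = 0.000145). Ddit4 fell from 1252, 967 and 1178 to 812, 673 and 761 (log2 fold change -0.57, SE 0.14, adjusted p = 0.00624). Members called in total RNA but not in polysomes were Pgk1, Pkm, Hif1a, Epas1 and Bnip3l, with differences of 0.25, 0.26, 0.24, -0.20 and 0.047 in polysomes. Whether these differ from those in total RNA was not tested.

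In subpolysomes, where mRNAs carry few ribosomes or none and the libraries were shallower, 16 of 39 members rose and 1 fell, against 11% that rose and 11% that fell of 12645 genes (22% in all), with a median of 0.39. The libraries did not overlap in 21 members higher and 2 lower, and in 17.6% and 19.1% of all genes (36.7% in all). The replicate block gave 17 and 1, beside 12.6% and 13.1% of all genes (25.6% in all), and added Pgam1 (adjusted p = 0.0119 with the block, 0.109 without). Leaving out WT 2 lowered the count of rises to 9, where 7.70% of all genes rose. Without KO 3, the library richest in Rn45s, 18 members and 9.01% of all genes rose. The calls of Slc2a1, Hk1, Pfkp, Tpi1, Pdk1, Hif1a, Egln1 and Ndrg1 were lost without 1 library or another or under another scaling. Aldoc rose from 15.5, 15.1 and 11.7 to 36.9, 27.5 and 34.5 (log2 fold change 1.24, SE 0.16, adjusted p = 2.46e-06), Ero1l from 37.5, 32.3 and 34.6 to 90.2, 68.5 and 48.2 (log2 fold change 1.00, SE 0.16, adjusted p = 4.33e-05) and Adm from 1.61, 1.43 and 0.615 to 7.45, 4.15 and 3.33 (log2 fold change 2.04, SE 0.45, adjusted p = 0.00146). Ddit4 fell again, from 529, 499.8 and 498 to 303, 324 and 331 (log2 fold change -0.66, SE 0.10, adjusted p = 3.73e-05). The 14 members that rose in all 3 kinds of RNA were Slc2a1, Hk1, Hk2, Pfkl, Aldoc, Tpi1, Ldha, Pdk1, Egln1, Egln3, Bnip3, Adm, Ndrg1 and Ero1l. They are 14 of the 29 rises in total RNA, 14 of the 25 in polysomes and 14 of the 16 in subpolysomes, and they make 35.9% of the 39 members, where 8.75% of 12431 genes rose in all 3.

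The libraries numbered 1 stood apart for part of this list, for more members in KO than in WT. In 15 of 39 members (38.5%) KO 1 was the highest KO library in total RNA, polysomes and subpolysomes at once. It was so in 6.30% of all 12431 genes. KO 2 was so in 0 members and KO 3 in 0. Of the 15, 8 are among the 13 HIF targets. The WT library numbered 1 was the highest in all 3 kinds of RNA for 7 of 39 members (17.95%), against 6.81% of all genes. WT 2 was so in 0 members and WT 3 in 0. The 7 were Slc2a1, Pfkp, Pgam1, Egln1, Vegfa, Ddit4 and Ero1l. Of these, Pfkp, Pgam1, Egln1, Vegfa and Ero1l were also among the 15 of KO 1. Ankrd37 is the clearest, with 35.7, 17.5 and 12.6 scaled CPM in KO total RNA, 71.4, 32.8 and 33.2 in polysomes and 88.04, 53.9 and 40.4 in subpolysomes, beside 17.2, 14.2 and 16.5 in WT total RNA, 29.1, 35.3 and 39.3 in WT polysomes and 40.5, 45.6 and 51.8 in WT subpolysomes. In total RNA KO 1 was far above the WT libraries, KO 2 just above the highest of them and KO 3 below the lowest. KO polysomes had 15.1, 7.98 and 5.74 of Adm, 18.8, 14.4 and 8.51 of Pfkfb3 and 33.6, 24.4 and 17.8 of P4ha1, and KO subpolysomes 7.45, 4.15 and 3.33, 15.1, 6.57 and 4.91 and 25.1, 19.7 and 12.9 in the same order of genes. The remaining genes were Hk1, Hk2, Pfkp, Pgam1, Egln1, Egln3, Vegfa, Bnip3, P4ha2, Higd1a and Ero1l. Without KO 1, 27 members rose in total RNA, 19 in polysomes and 11 in subpolysomes, against 23.5%, 12.6% and 8.77% of all genes in the same fits. The log2 fold change of Pfkfb3 in total RNA was 0.32 without KO 1 (adjusted p = 0.0307). Aldoc, Slc16a3 and Pfkfb4 were not among the 15.

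Within each genotype the polysome fraction was set against the subpolysome fraction to show how members divide between mRNA with many ribosomes and mRNA with few. In WT 19 of 39 members were higher in polysomes and 7 lower, against 32.8% and 30.9% of 13392 genes (63.7% in all); in KO 20 were higher and 7 lower, against 31.7% and 29.9% (61.6%). The replicate block gave 21 and 9 in WT and 22 and 8 in KO, against 34.3% and 31.3% of all genes in WT (65.6% in all) and 33.2% and 30.3% in KO (63.6% in all). The fractions did not overlap in 23 members higher and 8 lower in WT (37.6% and 31.5% of all genes, 69.1% in all), and in 20 and 7 in KO (34.1% and 30.7%, 64.8% in all). The block added Pfkfb3 and P4ha1 as higher in both genotypes, Ankrd37 as lower in both and Vegfa as lower in WT (adjusted p with the block 0.0032, 0.00204, 0.000706 and 0.0315 in WT, without it 0.077, 0.0672, 0.127 and 0.0864). These directions are relative to the other mRNAs. Scaling by library totals instead of TMM shifted the median of all genes by 0.83 in WT and 0.89 in KO on the log2 scale, and then 31 members were higher and 5 lower in WT, against 59.4% and 12.1% of all genes, and 32 and 3 in KO, against 61.3% and 10.1%.

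**Figure D3:**
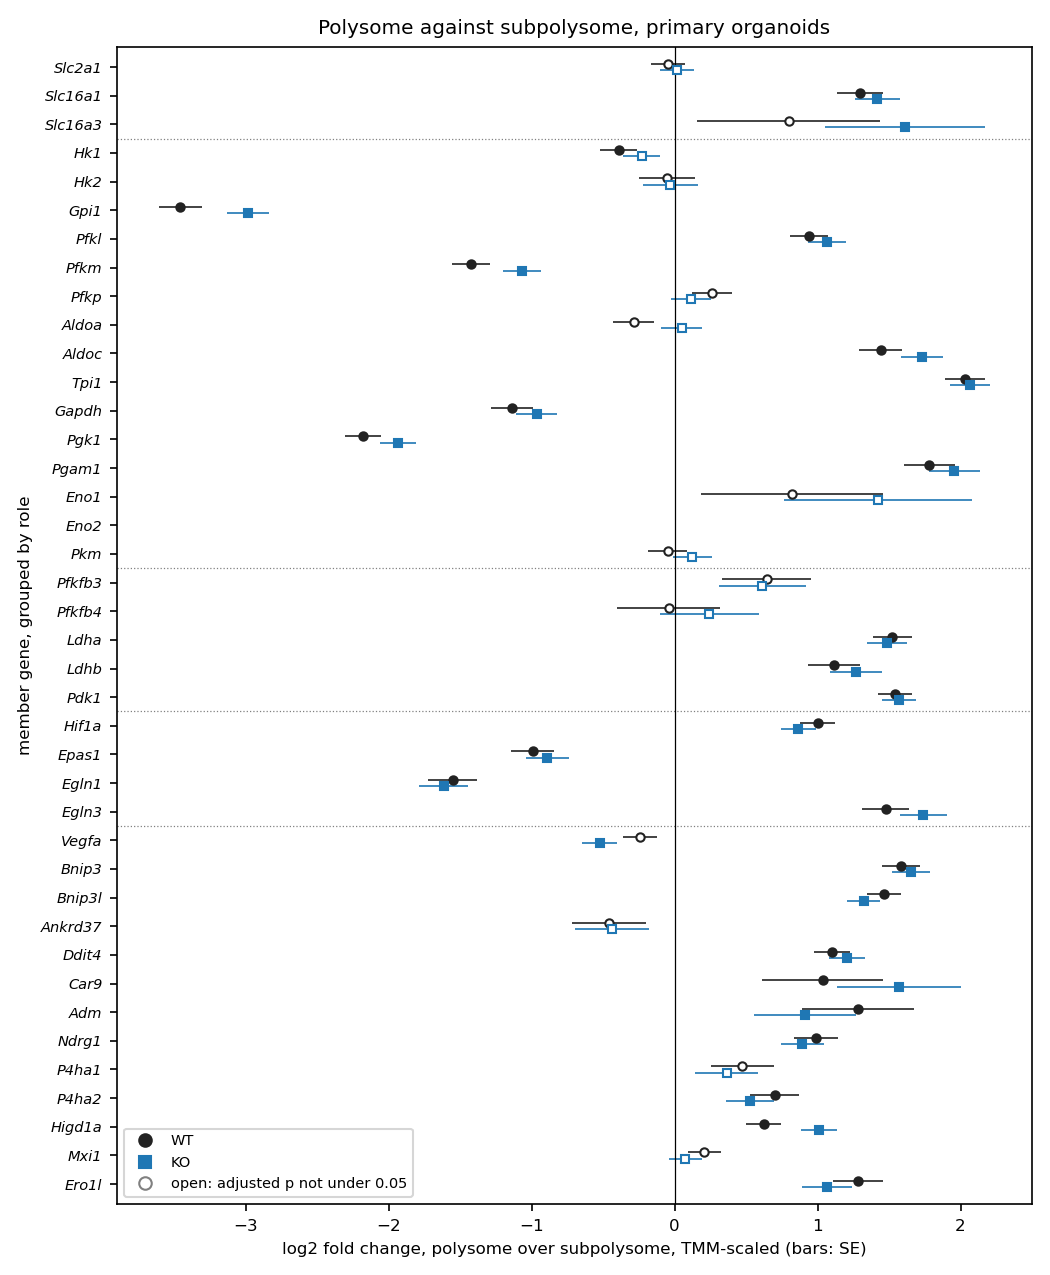
Log2 fold change of polysome over subpolysome (horizontal axis, TMM-scaled, bars are SE) for each member tested (vertical axis, dotted lines divide the roles) in WT and KO primary organoids, 3 libraries a group; filled symbols passed the test. WT and KO symbols lie close together, with Gpi1, Pgk1, Egln1 and Pfkm far to the left and Tpi1, Pgam1 and Aldoc far to the right.

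The enzymes of glycolysis split in this comparison. Gpi1 (chr7:34201330-34230336, minus strand) was the most subpolysomal of the 40, with 299, 271 and 291 scaled CPM in WT polysomes and 2564, 3118 and 3447 in subpolysomes (log2 fold change -3.46, SE 0.15, adjusted p = 8.21e-14), and 354, 387 and 448 and 3254, 2907 and 3080 in KO (-2.98). Pgk1 followed with 285, 266 and 270 in polysomes and 1119, 1218 and 1252 in subpolysomes of WT (log2 fold change -2.18, SE 0.13, adjusted p = 5.93e-12). Pfkm and Gapdh were lower in polysomes too, at -1.43 and -1.14 in WT and -1.07 and -0.96 in KO. The other way, Tpi1 had 1998, 2126 and 2331 in WT polysomes and 483, 521 and 523 in subpolysomes (log2 fold change 2.03, SE 0.14, adjusted p = 7.40e-11), Pgam1 182, 142 and 156 and 55.7, 47.6 and 31.1 (log2 fold change 1.78, SE 0.18, adjusted p = 2.33e-08), and Aldoc 41.2, 34.9 and 43.3 and 15.5, 15.1 and 11.7 (log2 fold change 1.44, SE 0.15, adjusted p = 3.79e-08). None of these groups overlapped. The median of the 14 enzymes tested was -0.05 in WT, and that of the 13 HIF targets 0.99.

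Among HIF targets 9 of 13 were polysomal in WT, and 3 of 5 genes of pyruvate and flux control. Log2 fold changes in WT were 1.58 for Bnip3, 1.46 for Bnip3l, 1.54 for Pdk1, 1.52 for Ldha, 1.28 for Adm, 1.28 for Ero1l and 1.10 for Ddit4, all past the threshold. Pdk1, for example, had 206, 209.9 and 212 in WT polysomes and 80.6, 65.8 and 61.7 in subpolysomes. The prolyl hydroxylases parted in this comparison. Egln3 was higher in polysomes by 1.48 in WT and 1.74 in KO, and Egln1 lower, at -1.55 and -1.61. Hif1a (1.00) was polysomal and Epas1 (-0.99) subpolysomal in WT. Under library totals Egln1, Gpi1 and Pgk1 were still lower in polysomes in both genotypes. Hk1 in WT (from -0.39 to 0.44) and, in KO, Vegfa (from -0.52 to 0.36) and Epas1 (from -0.89 to 0.0089, not called) turned. The calls of Pfkm (-0.18, adjusted p = 0.247) and Gapdh (-0.087, adjusted p = 0.509) in KO and of Epas1 in WT (-0.15, adjusted p = 0.445) were lost under library totals. Leaving out single libraries lost the call of Car9 in WT for 5 of the 6 WT libraries (0.67 to 1.08, adjusted p 0.0606 to 0.124). It lost that of Hk1 in WT without WT subpolysome 3 or WT polysome 2 (-0.31 in both, adjusted p = 0.0738 and 0.0713). The call of Adm in KO was lost without KO polysome 1 (0.44, adjusted p = 0.323) and without KO subpolysome 2 or 3 (adjusted p = 0.0893 and 0.119). Longer coding sequences went with lower ratios over the 39 members (Pearson's r -0.33 and Spearman's rho -0.41 in WT, -0.34 and -0.39 in KO; coding lengths of 99 to 945 codons). This is across genes that share the same libraries and is given as a description.

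For no member did a difference in polysome to subpolysome ratio between genotypes pass the test. In the interaction of genotype and fraction 0 of 39 members passed with edgeR and 0 with DESeq2, where 0.00747% of all genes (1 of 13392) passed with edgeR. At an unadjusted p under 0.05 there were 2 members, Gpi1 and Higd1a. The log2 ratio was higher in KO by 0.47 (SE 0.19, adjusted p = 0.877) for Gpi1 and by 0.39 (SE 0.17, adjusted p = 0.877) for Higd1a. The median difference of the 39 was 0.10, and single members ranged from -0.37 to 0.81. Adding the block left 0 members and gave 0.0896% of all genes, 0.0448% in each direction.

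In the cancer organoids no member passed the test between the libraries labelled KO and WT. Of 38 members tested (Eno2 and Car9 were too low), 0 passed in edgeR, 0 in DESeq2 and 0 at an unadjusted p under 0.05, and 0.00% of all 12681 genes passed in edgeR (10 genes in DESeq2). With 2 libraries a group and labels that Arid1a does not bear out, spread was wide. Egln3 had 136 and 53.7 scaled CPM in the libraries labelled WT and 145 and 18.1 in those labelled KO. Bnip3 had 115 and 54.3 where labelled WT, 109 and 40.4 where labelled KO. Ndrg1, a stress-responsive differentiation gene, had 41.05 and 53.5 where labelled WT, 132 and 16.6 where labelled KO. For Egln3 and Bnip3 both libraries numbered 1 were above both numbered 2. Slc16a3 was at 0.2 and 0.264 in the libraries labelled WT and 9.06 and 0.0959 in those labelled KO, high in a single library. The groups did not overlap in 4 of the 40 members, beside 20.6% of all genes tested: Pfkp and Car9 higher, Pfkm and Ddit4 lower in those labelled KO. Car9, not tested here, was near the floor. Its mean was 0.0978 CPM of the library's total where labelled WT and 0.164 where labelled KO. The KO effect itself differed between cancer and primary organoids for 1 of 40 members (lower), Pfkm, by -0.60 (SE 0.13, adjusted p = 0.0486) on the log2 scale (cancer minus primary), as it did for 3.13% of all genes (1.53% higher and 1.60% lower). That call was lost without the low count filter, with the replicate block and with most single libraries left out.

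Cancer and primary organoids differed in most members, in both directions. In total RNA 15 of 40 members were higher in cancer and 15 lower, against 38.8% and 39.0% of 14305 genes (77.8% in all), so the share called, 30 of 40, was near that of all genes. Kind of organoid and set of libraries cannot be told apart, and the submitters' processing notes name Bowtie for the primary libraries alone. Slc16a1 was far higher in cancer, 276 and 294 scaled CPM where labelled WT, 274 and 409 where labelled KO, beside 22.5, 17.6 and 17.97 in primary WT (log2 fold change 3.62, SE 0.12, adjusted p = 8.54e-08). Slc2a1 (1.09), Hk2 (0.70), Pfkfb4 (2.01), Pkm (1.27), Ldha (0.82), Hif1a (1.39), P4ha1 (adjusted p = 1.54e-05) and Ero1l (1.03) were higher too. Ldhb was far lower, 0.533 and 0 where labelled WT, 0 and 0.415 where labelled KO, beside 5.03, 5.77 and 5.83 in primary WT (log2 fold change -4.81, SE 1.04, adjusted p = 0.00289). Car9 (-4.31), Epas1 (-2.88), Ddit4 (-2.18), Mxi1 (-2.15), Aldoc (-1.79), Vegfa (-1.24) and Aldoa (-1.03) were lower. Cancer and primary libraries did not overlap in 11 members higher and 10 lower in cancer, beside 64.7% of all genes in both directions. Of the members named so far in this comparison, Hk2, Ero1l and Aldoc overlapped. Hk2 had 15.9 scaled CPM per kb in the cancer library labelled KO 2, beside 24.6, 19.1 and 16.5 in primary KO. Hif1a thus was higher and Epas1 lower in cancer, the libraries of each kind not overlapping: Epas1 had 1.88 and 14.2 in cancer labelled WT, 4.90 and 3.29 in cancer labelled KO, and the primary levels given above. The calls of Pfkl, Egln3, Ndrg1 and Ankrd37 were lost without 1 library or another.

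**Figure D4:**
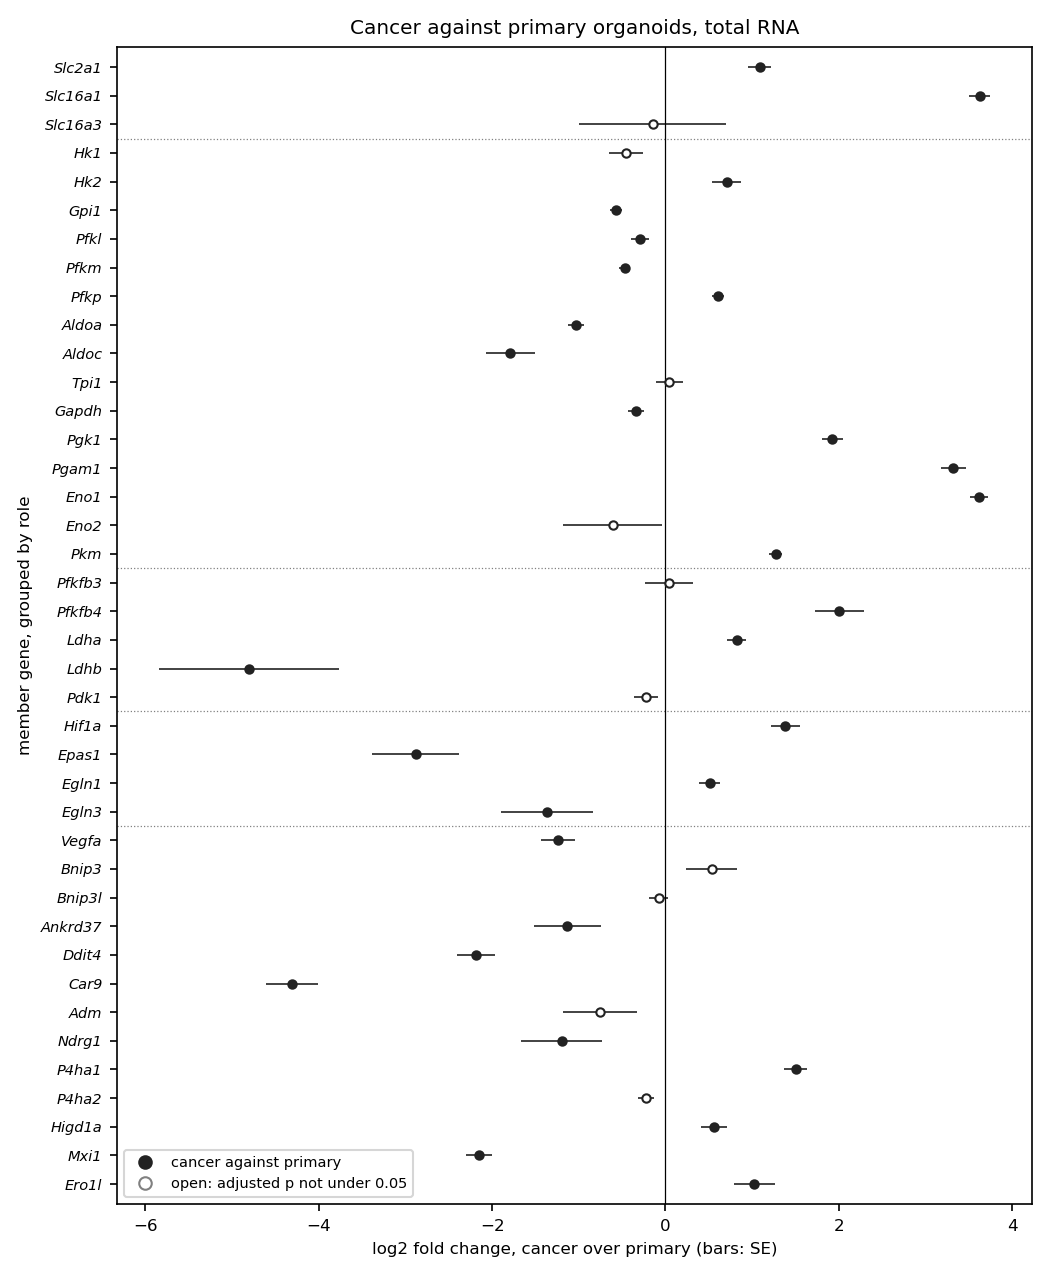
Log2 fold change of cancer over primary organoids in total RNA (horizontal axis, bars are SE) for each member (vertical axis, dotted lines divide the roles), 4 against 6 libraries; filled symbols passed the test. Slc16a1, Eno1 and Pgam1 lie farthest to the right and Ldhb and Car9 farthest to the left.

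Some members share sequence with other genes, so the way reads were assigned can set their counts. Of the stretches of 50 bases in a member's annotated transcripts, 53.9% occur in another gene's transcripts for Pgk1, 47.2% for Bnip3, 36.2% for Pgam1, 26% for Eno1, 25.8% for Pkm, 25.1% for Gapdh, 24.4% for Higd1a, 21% for Ldhb and 20.8% for Bnip3l. For Pgk1, Pgam1, Gapdh and Ldhb the partner that shares most is a processed pseudogene. Gpi1 shares 15.8%, with transcripts of 122 other genes. Eno1, the main enolase of most cells, shares 25.3% with the copy Eno1b. It was at 2.43, 2.10 and 2.37 scaled CPM in primary WT total RNA and at 31.6 and 30.5 in cancer labelled WT, while Eno1b had 0.315, 0.629 and 0.42 in primary WT, 304 and 281 in cancer labelled WT. Pgam1 likewise had 118, 112 and 102 in primary WT, 1729 and 1032 in cancer labelled WT. The differences of Eno1, Pgam1 and Pgk1 between cancer and primary organoids (3.62, 3.32 and 1.93) are therefore uncertain, as is the low level of Eno1. Those of the other members listed here with shared sequence, Pkm and Ldhb among them, are open to the same doubt. The part of read assignment in them was not tested, nor was its part in the polysome to subpolysome differences of Gpi1, Pgk1 and Gapdh. Aldoc, Hk2, Pdk1, Slc16a1, Slc16a3, Egln1, Egln3, Adm, Ddit4, Epas1, P4ha1 and Pfkfb4 share 0% at this length.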

How the data were processed

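RNA was sequenced from 22 mouse organoid libraries. The deposited values are raw read counts per gene symbol (mm10), made with HTSeq, and with Bowtie for the 18 primary libraries, per the submitters' processing notes. Versions, annotation, strand and the treatment of reads with several matches are not stated in any label or header used. Groups came from the labels. Counts were fitted with edgeR 4.0.16 in R 4.3.3 (quasi-likelihood test, TMM factors, filterByExpr, Benjamini-Hochberg adjustment over all genes tested, threshold 0.05). SE is the size of the log2 fold change divided by the root of F. The procedure was also run on simulated counts, with few genes changed and no pairing between libraries. The data differ in both, so that run does not measure its error here. Each genotype comparison used its own libraries, the fractions shared a fit of 12 libraries, and cancer against primary a fit of 10.

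Members and gene lists were chosen with earlier results of these data known. Members were named where they passed, with those of the smallest p or largest change per role in full and the others by level. Other pathway genes were named if among the 3 highest or 3 lowest called changes of their list. Same-numbered samples deviated together in polysomes (r 0.270, 0.266 and 0.523) and in subpolysomes (0.169, 0.123 and 0.195). They did so between fractions too (0.453, 0.119 and 0.316 in WT, 0.274, 0.134 and 0.367 in KO), and the numbers were taken to pair all of these. Samples of unlike number reached r 0.140 in polysomes and -0.009 in subpolysomes. Between fractions they reached 0.129 in WT, above the lowest same-number value, and 0.132 in KO. Values for single genes are from the fit without the block unless another setting is named. Alternatives were RLE size factors, no low count filter, DESeq2 1.42.0, a replicate block, each library left out and, chosen after seeing the data, library totals as scaling and a crossed block for cancer. Promoter windows came from RefSeq (GRCm38.p6), and shared sequence was counted in stretches of 50 bases of annotated transcripts. Counts of 39245248 to 76594655 per library set the precision.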

Additional observations from a re-analysis of the deposited data

Results flagged for a closer look

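The KO effect on Pfkm, the muscle form of phosphofructokinase, differed between cancer and primary organoids by -0.60 (SE 0.13, adjusted p = 0.0486) on the log2 scale in edgeR's interaction test. The call was lost in edgeR without the low count filter (adjusted p = 0.0751) and with the replicate block (adjusted p = 0.118). It was also lost when any single primary library was left out. Pfkm was 1 of 40 members called, beside 3.13% of all genes. Primary total RNA had 31.3, 32.8 and 30.6 scaled CPM in WT and 37.4, 35.5 and 38.3 in KO, and cancer libraries 29.98 and 26.3 where labelled WT and 23.5 and 21.4 where labelled KO. Arid1a reads of 2 of these cancer libraries ran against their labels, and the part of the labels in this difference was not tested.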

How the results depend on the processing

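The counts of members that rose and fell in KO total RNA stayed within 1.5 times of 29 and 2 under the alternatives run. With the replicate block, where the numbers do not pair total RNA libraries (same-number r 0.452, 0.133 and -0.208), they were 30 and 3. Leaving out 1 library gave 14 to 25 members higher in KO polysomes and 9 to 18 in subpolysomes. With library totals as scaling, chosen after seeing the data, 31 members were higher in polysomes than subpolysomes in WT, and 32 higher and 3 lower in KO. Hk1 in WT turned to 0.44, and in KO Epas1 to 0.0089 and Vegfa to 0.36. For the interaction of genotype and fraction, 29 genes passed without the low count filter, 12 in DESeq2, 12 with the replicate block and 0 to 4 with 1 library left out, against 1. Between cancer genotypes 10 genes passed in DESeq2. For the interaction of genotype and kind of organoid, members lower numbered 0 without the filter and 9 in DESeq2, and 0 to 16 lower and 0 to 2 higher with 1 library left out. All genes called there numbered 1747 in DESeq2, 201 with the replicate block and 72 to 2376 with 1 library left out, against 448. A cancer arm of 1 library is assumed to vary like the other groups. Same-numbered cancer libraries deviated in opposite directions (r -0.416), and the crossed block called 0 members. The cause of these shifts was not tested.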
